A study of Mus musculus with 68 samples.

Results

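The transcripts of 10 subunits of the mouse SWI/SNF chromatin remodelling complex, in the form known as BAF, were followed from the donor cell to the cloned blastocyst and in blastocysts that developed after a morpholino injection. The genes were taken by name (Smarca4, Smarca2, Smarcb1, Smarcc1, Smarcc2, Smarcd1, Smarce1, Arid1a, Arid1b and Actl6a), and each stood on 1 row of every one of the 68 gene tables, which makes them 10 of the 24421 reference genes measured. Their levels are given in TPM, a transcript abundance unit that is scaled by transcript length and by the total of the library. Somatic cell nuclear transfer (SCNT) embryos were made by injecting nuclei of cumulus cells (CCs), the somatic cells that surround the ovulated oocyte, into enucleated metaphase oocytes of BDF1 mice (B6D2F1 females in the methods), and were activated with SrCl2 and cytochalasin B. The 3 CC libraries were compared with 5 SCNT libraries of the 4-cell stage (4C) and with 6 SCNT libraries each at 6 and 14 hours post activation (6 hpa and 14 hpa), the early and late 2-cell stage (E2C and L2C), the 8-cell stage (8C), the morula, the inner cell mass (ICM) and the trophectoderm (TE).

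The other experiment used fertilized embryos, injected at the zygote stage with a morpholino (MO, an antisense oligonucleotide that blocks the translation or splicing of its target RNA) against Max or against Mcrs1. ICM and TE were each measured in 2 libraries per treatment, beside 2 ICM and 2 TE libraries titled control. The control libraries carry the treatment label untreated, whereas the study describes them as embryos that received a control MO. By the same account the control MO was given at a higher concentration than the Max and Mcrs1 MOs, which also differed from each other in concentration. The zygotes came from superovulated C57BL/6j females mated with C57BL/6j males, the SCNT and CC libraries are labelled untreated, and the labels name no deletion or transgene. Each reaction held 10 blastomeres, and ICM and TE were separated by hand under a micromanipulator by cell shape and position. The study calls the SCNT libraries biologically independent and those of the MO experiment biological replicates, and the labels do not say which embryos went into which library. The p-values measure the spread between these libraries, and fewer cells of a type cannot be told apart from less RNA per cell.

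BAF complexes use the energy of ATP to slide or evict nucleosomes and so open chromatin for transcription factors. Each complex carries 1 of the mutually exclusive ATPases encoded by Smarca4 (BRG1) and Smarca2 (BRM), a scaffold built on SMARCC1 (BAF155) and SMARCC2 (BAF170), and, in the canonical form, either ARID1A or ARID1B as the large DNA-binding subunit. Maternal BRG1 is known to be needed for activation of the mouse zygotic genome, and complexes rich in BAF155 are known from pluripotent cells.

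Of the 3 paralog pairs, the ATPases had the widest shift in ratio between stages, so the start regions of both genes are shown. They lie on the plus strand of GRCm38.p6 (the mm10 assembly), Smarca4 at chr9:21615919-21616218 and Smarca2 at chr19:26604910-26605209, and each window holds the 250 bases before the RefSeq start and the first 50 bases of the gene. Capitals mark CpG dinucleotides.
Smarca4: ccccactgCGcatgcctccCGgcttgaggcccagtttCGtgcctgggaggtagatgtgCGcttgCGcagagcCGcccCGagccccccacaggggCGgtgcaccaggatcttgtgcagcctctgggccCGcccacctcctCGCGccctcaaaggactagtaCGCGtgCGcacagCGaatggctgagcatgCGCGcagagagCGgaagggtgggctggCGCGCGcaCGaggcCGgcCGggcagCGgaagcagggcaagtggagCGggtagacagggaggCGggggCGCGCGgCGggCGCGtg
Smarca2: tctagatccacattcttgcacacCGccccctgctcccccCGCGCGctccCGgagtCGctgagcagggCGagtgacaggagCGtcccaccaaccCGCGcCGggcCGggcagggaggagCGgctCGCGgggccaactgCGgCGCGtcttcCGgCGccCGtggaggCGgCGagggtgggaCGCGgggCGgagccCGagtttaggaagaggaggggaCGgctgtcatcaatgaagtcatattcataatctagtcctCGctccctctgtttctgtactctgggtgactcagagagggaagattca
Smarca4 held 33 CpGs in its window and Smarca2 held 29, so both start in CpG-rich sequence. RefSeq windows were found for 9 of the 10 members, 10 windows in all because Arid1a has 2, and they held 21 to 48 CpGs, where the median over 32851 windows of the table was 7 and 24.8% of them held at least 21. The hexamer CACGTG, a palindrome that reads the same on both strands and is the core E-box bound by dimers that contain MAX, was searched for because Max was one of the MO targets. It was found in 0 of the 10 member windows and in 7.15% of all windows, which says only that these letters are not in these 300 bases.

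The libraries held 6177 to 11771 genes at 1 TPM or more and 1.00 to 5.17 gigabases of aligned sequence, and the depth in reads is unknown because the tables give no counts. The TPM of reference genes came to 30.4% to 94.4% of the total over all loci that the authors assembled. The lowest share was that of L2C replicate 1. Markers of cumulus cells summed to 1995 to 3242 TPM in the CC libraries and to at most 60.4 TPM in the SCNT libraries. Oocyte markers summed to 0.543 to 2.39 TPM in CC, to 2472 to 4805 TPM at 6 hpa and to at most 77.5 TPM at 4C. A rise or fall from CC to 6 hpa is a difference in level between a somatic cell and an embryo that holds oocyte RNA. What the donor genes contribute to it was not tested. Replicates 1 to 3 and 4 to 6 differed within several SCNT stages: in the SCNT ICM, replicates 1 to 3 held 6177 to 6771 genes at 1 TPM or more and replicates 4 to 6 held 9011 to 10032. Among the members, Smarca4 and Smarcb1 were each higher in replicates 4 to 6 without overlap in 5 of the 9 SCNT stages, and Smarca2 was lower in 3, so values within each set of replicates are given beside the calls. In comparisons with CC, both sets were set against the same 3 CC libraries. A value of 0 may be a failed estimate rather than an absent transcript, which was not tested. Ldha, a glycolytic enzyme, was under 1 TPM in 13 of the 68 libraries. Of the other widely expressed genes checked, Tuba1b and Eef2 were so in 2, Rpl3, Tbp and Pgk1 in 1, and Actb and Gapdh in 0.

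A gene was called higher or lower where limma's moderated test across all genes gave a Benjamini-Hochberg adjusted p under 0.05 and the mean log2(TPM + 1) differed by at least 1, a scale that understates the change of genes at low levels. How often groups did not overlap over all genes was not counted, so overlap is given to describe the values only. With 2 libraries against 2, as in the MO experiment, groups can separate readily without a difference between them. Of the members, 9 passed the filter of a mean of 1 TPM in the SCNT and CC libraries, and Smarcd1 did not. From CC to 6 hpa 5 of these 9 were called, where 61.4% of all 12084 genes tested were: 2 were higher, against 25.8% of all genes, and 3 lower, against 35.6%. At the following steps 1 of 9 was called from 6 to 14 hpa against 11.2% of all genes, 0 of 9 from 14 hpa to E2C against 6.00%, 2 of 9 from E2C to L2C against 34.7%, and 4 of 9 from L2C to 4C against 38.3%. The later steps gave 2 of 9 from 4C to 8C against 20.0%, 1 of 9 from 8C to morula against 12.6%, 0 of 9 from morula to ICM against 24.0% and 1 of 9 from morula to TE against 22.0%. Between SCNT ICM and TE 0 of 9 members were called against 5.79% of all genes. These shares stood near or below the background of each step, so the number of members called is no result about them. At the 2 steps with 0 called, limma gave an unadjusted p under 0.05 for 1 member each, Smarcc2 from 14 hpa to E2C and Arid1a from morula to ICM, and between ICM and TE for 0 members. The SCNT ICM and TE libraries overlapped in lineage markers. TE markers summed to 2034 to 8506 TPM in the ICM and 5143 to 16191 TPM in the TE, and ICM markers to 211 to 391 TPM and 58.6 to 228 TPM. Of the markers tested, 3 of 4 for ICM were called higher in the ICM and 2 of 7 for TE lower. How far the hand-separated cells were mixed was not tested.

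**Figure D1:**
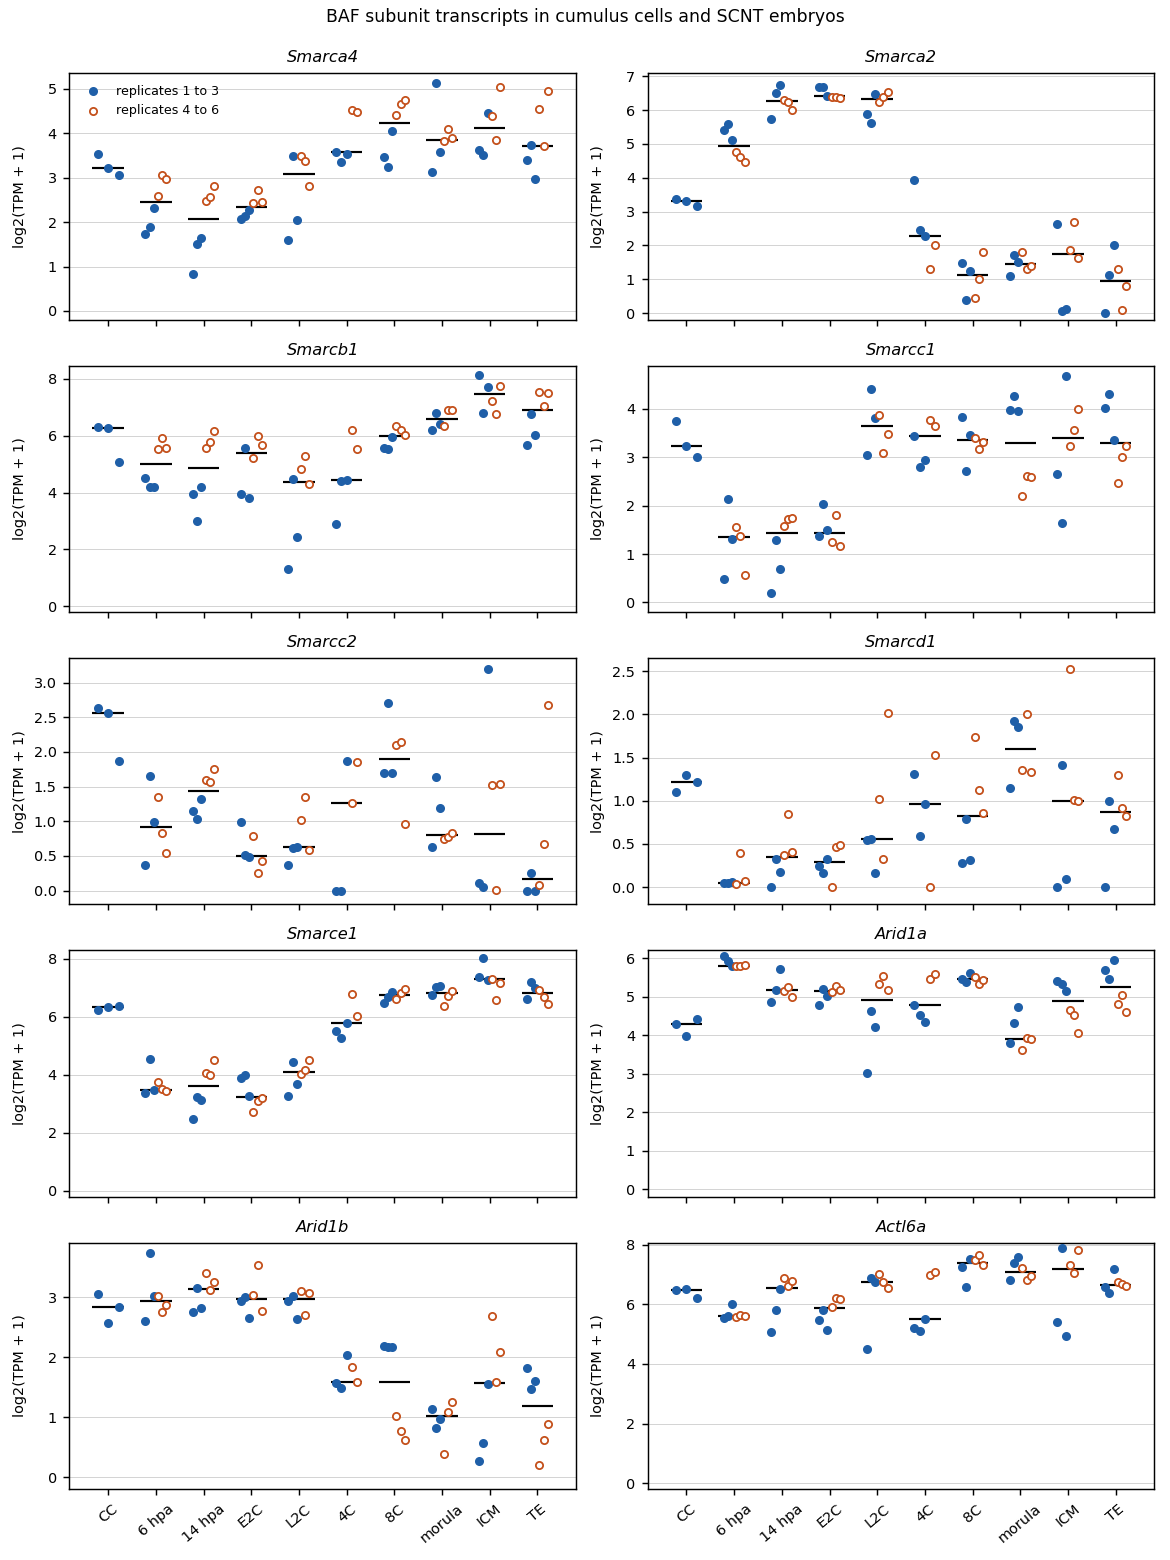
Levels of the 10 BAF transcripts in each CC and SCNT library, 1 panel per gene, on the vertical axis as log2(TPM + 1), with the groups from CC to TE along the horizontal axis. Filled points are replicates 1 to 3, open points are replicates 4 to 6, and the bar is the group's median. Smarca2 is highest from 14 hpa to L2C and drops at 4C, where Smarce1 rises.

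Smarca2, the ATPase BRM, lies on chromosome 19 (mm10, 26605160 to 26778321). It stood at 9.40, 9.03 and 8.02 TPM in the CC libraries, and its lowest, median and highest values were 20.9, 29.7 and 47.0 TPM at 6 hpa and 52.6, 76.1 and 107 TPM at 14 hpa. It then held 81.2, 84.0 and 102 TPM at E2C and 48.2, 78.8 and 91.5 TPM at L2C. Every library at 6 hpa was above every CC library, and every library at 14 hpa was above every library at 6 hpa. The rise from CC to 6 hpa was 1.70 on the log2 scale, 3.25-fold (SE 0.45, adjusted p = 0.00101 in limma), and was 2.08 in replicates 1 to 3 and 1.32 in replicates 4 to 6. The rise from 6 to 14 hpa was 1.27 (SE 0.37, adjusted p = 0.0138), with 1.57 in replicates 4 to 6 and 0.96 in replicates 1 to 3, where the adjusted p was 0.422. This call was also lost when replicate 3, 4, 5 or 6 was left out and with a pseudocount of 0.1.

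At 4C, Smarca2 fell to 14.3, 4.54, 3.87, 1.49 and 3.0 TPM in replicates 1 to 5. The fifth library is replicate 5 by its label, whereas its table was deposited under the number 6. Comparisons with 4C that leave out or pair replicates follow the label. All 5 libraries lay below the lowest L2C library, and the drop was 13.8-fold, a log2 difference of -3.79 (SE 0.39, adjusted p = 9.75e-12 in limma). It was -3.10 in replicates 1 to 3 and -4.73 in replicates 4 to 6, and it passed the threshold under each of the 16 alternative settings run for it, from -4.73 to -3.10. The level fell again at 8C, to 0.320, 1.19 and 2.51 TPM (lowest, median and highest), by 1.34 on the log2 scale (SE 0.39, adjusted p = 0.00958), though the 2 groups overlapped and the call was lost without replicate 1 and when only the 2 groups were fitted. The fall was 1.86 in replicates 1 to 3, and in replicates 4 to 6 the difference was -0.57 and not called. From then on Smarca2 stayed low, with 1.13 to 2.51 TPM in the morula, 0.0507 to 5.48 TPM in the ICM and 0 to 3.0 TPM in the TE, where 1 library was listed at 0. Oocyte markers moved with this fall: their sum was 328.5 to 1052 TPM at L2C and 21.9 to 77.5 TPM at 4C, and their part in it was not tested.

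Smarca4, the ATPase BRG1, lies on chromosome 9 (21616169 to 21704230). It stood at 10.6, 8.32 and 7.38 TPM in CC and at 2.31, 4.51 and 7.38 TPM (lowest, median and highest) at 6 hpa. Its values were 0.789, 3.34 and 6.04 TPM at 14 hpa, 3.17, 4.11 and 5.59 TPM at E2C and 2.03, 7.68 and 10.3 TPM at L2C, so that each stage up to L2C overlapped the one before it, while 14 hpa and E2C lay wholly below CC. At 4C it reached 11.0, 9.26, 10.5, 21.9 and 21.2 TPM, a rise over L2C of 1.09 on the log2 scale or 2.13-fold (SE 0.39, adjusted p = 0.0207 in limma). The lowest 4C library was below the highest L2C library, and the call passed under 9 of 16 alternatives. It was lost without replicate 1, 3, 4 or 5, when TPM was rescaled over reference genes only, and when only the 2 groups were fitted. The difference was 1.11 in replicates 1 to 3, where it was not called (adjusted p = 0.0994 in limma), and 1.27 in replicates 4 to 6. Medians of 18.0, 13.5, 16.6 and 12.2 TPM followed at 8C, morula, ICM and TE, and none of these steps was called. The 95% intervals of the differences were -0.58 to 0.99 from 4C to 8C, -0.91 to 0.59 from 8C to morula and -0.49 to 1.01 between ICM and TE.

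The share of the ATPase pair's summed TPM that came from Smarca2 showed the exchange within each library, free of the library's own scale. The median share was 52.1% in CC, 86.6% at 6 hpa, 96.2% at 14 hpa, 95.3% at E2C and 91.9% at L2C, then 26.9% at 4C, 6.06% at 8C, 11.6% in the morula, 8.83% in the ICM and 4.26% in the TE. Smarca4 was the higher of the 2 in 0 of 6 libraries at each stage from 6 hpa to L2C, in 4 of 5 at 4C, and in 6 of 6 at 8C, morula, ICM and TE. The shares at L2C, 82.4% to 96.6%, and those at 4C, 6.37% to 56.6%, did not overlap. The mean log2 ratio of Smarca4 to Smarca2 was 2.55 lower at 6 hpa than in CC, and 5.04 higher in the morula than at 6 hpa. In two-sided exact permutation tests adjusted over 9 pair comparisons, these gave adjusted p = 0.0429 (p = 0.0238, the smallest that 3 against 6 libraries allow) and adjusted p = 0.00974 (p = 0.00217, the smallest that 6 against 6 allow). With 1 replicate left out the 6 hpa difference stayed between -2.76 and -2.23 but did not pass after adjustment, at the smallest p the remaining libraries allow (0.0357 or 0.0952, exact permutation). Between ICM and TE the ratio differed by -0.36 (exact permutation p = 0.656). Smarca2 itself differed by 0.61 between ICM and TE and was not called. In replicates 4 to 6 the difference was 1.33 (adjusted p = 0.00991 in limma), and in replicates 1 to 3 it was -0.10.

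**Figure D2:**
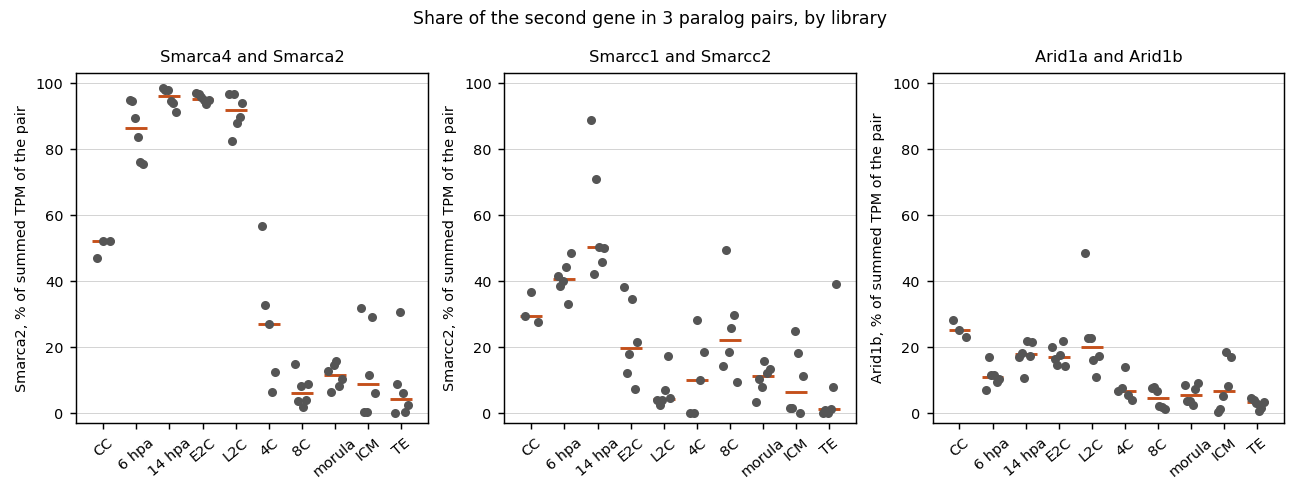
Share of a paralog pair's summed TPM that came from the second gene, in percent on the vertical axis, for Smarca2 with Smarca4, Smarcc2 with Smarcc1, and Arid1b with Arid1a. Each point is 1 library of a CC or SCNT group along the horizontal axis and the bar is the median: the Smarca2 share passes from a median of 91.9% at L2C to 26.9% at 4C.

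The scaffold genes moved apart from the ATPases in time. Smarcc1 (BAF155, chromosome 9, 110132024 to 110240178) stood at 12.5, 8.37 and 6.99 TPM in CC and at 0.401, 1.54 and 3.43 TPM (lowest, median and highest) at 6 hpa, a fall of 2.08 on the log2 scale with no overlap (SE 0.47, adjusted p = 1.40e-04 in limma). The difference was -2.01 in replicates 1 to 3 and -2.16 in replicates 4 to 6. It remained at medians of 1.72 TPM at 14 hpa and 1.71 TPM at E2C. At L2C it was 7.24, 11.6 and 20.4 TPM, every library above the highest E2C library of 3.09 TPM. That rise was 4.28-fold, a log2 difference of 2.10 (SE 0.39, adjusted p = 1.54e-05), it was 2.12 in replicates 1 to 3 and 2.07 in replicates 4 to 6, and it passed the threshold under each of its 16 alternatives. Smarcc1 therefore rose 1 stage before Smarca2 fell, between the E2C and L2C collections. From 4C to TE its medians lay between 8.87 and 9.88 TPM and no step was called, but the sets of replicates parted at 3 of these stages. At 4C replicates 1 to 3 held 5.94 to 9.79 TPM and replicates 4 to 6 held 11.6 to 12.6 TPM. The order was opposite in the morula, at 14.6 to 18.3 and 3.56 to 5.14 TPM, and in the TE, at 9.32 to 18.8 and 4.57 to 8.41 TPM. At 8C and in the ICM the sets overlapped. In the SCNT ICM the estimate against the morula was -1.09 in replicates 1 to 3 and 1.13 in replicates 4 to 6, of opposite sign.

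Smarcc2 (BAF170, chromosome 10, 128459236 to 128490174) was low throughout. It stood at 5.21, 4.88 and 2.67 TPM in CC and at 0.287, 0.885 and 2.14 TPM at 6 hpa, a fall of 1.40 with no overlap (SE 0.49, adjusted p = 0.0110 in limma). Its median stayed between 0.123 TPM in the TE and 2.78 TPM at 8C, with libraries listed at 0 at 4C and in the TE. The median share of Smarcc2 in the pair's summed TPM was 29.5% in CC, 40.8% at 6 hpa, 50.2% at 14 hpa, 19.7% at E2C and 4.35% at L2C. The log2 ratio of Smarcc1 to Smarcc2 was 0.68 lower at 6 hpa than in CC (exact permutation adjusted p = 0.0429) and 2.02 higher in the morula than at 6 hpa (exact permutation adjusted p = 0.00974). A pseudocount of 0.1 ended the first call. The call of Smarcc2 itself at 6 hpa was lost without replicate 1, in replicates 1 to 3 alone (-1.35, beside -1.44 in replicates 4 to 6), under quantile normalization and with that pseudocount.

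Smarce1 (BAF57, an HMG-box subunit that binds DNA, chromosome 11, 99209048 to 99231017) had the widest early fall of the members tested on the log2(TPM + 1) scale. That rank depends on the scale, which understates the fall of members at low levels such as Smarcc1. The CC libraries held 73.9, 80.5 and 81.9 TPM, and those at 6 hpa held 9.47, 10.2 and 22.6 TPM (lowest, median and highest), 6.20-fold lower (log2 difference -2.63, SE 0.34, adjusted p = 1.49e-09 in limma). The difference was -2.51 in replicates 1 to 3 and -2.76 in replicates 4 to 6. Medians of 11.7, 8.40 and 16.2 TPM followed at 14 hpa, E2C and L2C. At 4C the 5 libraries held 45.0, 37.7, 54.0, 109 and 64.0 TPM, all above the highest L2C library of 21.7 TPM. The rise was 3.63-fold (log2 difference 1.86, SE 0.29, adjusted p = 5.04e-07), 1.72 in replicates 1 to 3 and 2.17 in replicates 4 to 6, and it passed under each of its 16 alternatives. Smarce1 then held 88.8 to 122 TPM at 8C, a difference of 0.85 from 4C that had an adjusted p of 0.0273 but was under 2-fold. It held 82.6 to 134 TPM in the morula, 95.2 to 259 TPM in the ICM and 85.7 to 146 TPM in the TE.

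Smarcb1 (SNF5, a core subunit that contacts the nucleosome, chromosome 10, 75896769 to 75921614) was more variable between libraries. The CC libraries held 78.5, 75.5 and 32.5 TPM. Its lowest, median and highest values were 17.4, 33.5 and 59.7 TPM at 6 hpa, 6.98, 31.7 and 69.7 TPM at 14 hpa, 13.0, 41.4 and 62.1 TPM at E2C and 1.46, 19.8 and 37.7 TPM at L2C. The fall at L2C was 1.27 on the log2 scale (SE 0.52, adjusted p = 0.0449 in limma), with overlapping groups, and it passed under 7 of 16 alternatives, being lost without replicate 1, 2, 3, 5 or 6 among others. The difference was -1.72 in replicates 1 to 3 and -0.82 in replicates 4 to 6. Smarcb1 held 6.43, 20.4 and 72.0 TPM at 4C and 44.9, 61.9 and 78.8 TPM at 8C, a difference of 1.24 that was not called (adjusted p = 0.0961 in limma). Its highest medians came late, 96.7 TPM in the morula, 178 TPM in the ICM and 118 TPM in the TE, and none of the steps between them was called. Smarcd1 (BAF60A, an adaptor subunit, chromosome 15, 99702287 to 99713995) was low and untested: it held 1.15 to 1.46 TPM in CC, medians of 0.0368 TPM at 6 hpa and 0.274 TPM at 14 hpa, and its highest SCNT median was 2.08 TPM in the morula.

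Arid1a (BAF250A, chromosome 4, 133679008 to 133753611) moved opposite to Smarcc1, Smarcc2 and Smarce1 at the first step. It stood at 18.6, 14.8 and 20.6 TPM in CC and at 54.5, 55.1 and 65.8 TPM (lowest, median and highest) at 6 hpa, 3.10-fold higher with no overlap (log2 difference 1.63, SE 0.35, adjusted p = 6.57e-05 in limma). The rise was 1.69 in replicates 1 to 3 and 1.57 in replicates 4 to 6. Medians of 35.0, 34.6 and 29.7 TPM followed at 14 hpa, E2C and L2C, with 26.5, 22.2, 19.4, 43.2 and 47.2 TPM in the 4C libraries. Arid1a then made the only called fall of a member from 8C to morula: 39.4, 42.9 and 48.6 TPM became 11.3, 14.1 and 25.8 TPM, and the groups did not overlap. This fall was 1.40 (SE 0.29, adjusted p = 3.89e-04), -1.19 in replicates 1 to 3 and -1.61 in replicates 4 to 6, and passed under each of its 16 alternatives. In the TE it was back at 23.3, 37.7 and 61.2 TPM, a rise over the morula of 1.21 (SE 0.29, adjusted p = 0.00102) that quantile normalization took to 0.96 and under the 2-fold threshold. It was 1.42 in replicates 1 to 3 and 1.01 in replicates 4 to 6, and the lowest TE library was below the highest morula library. In the ICM it held 15.7, 29.2 and 41.5 TPM, 0.80 above the morula, which was under 2-fold (adjusted p = 0.0319). ICM and TE differed by -0.41 (95% interval -0.99 to 0.16).

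Arid1b (BAF250B, chromosome 17, 4995074 to 5347656) shared the timing of the Smarca2 fall at a lower level. It stood at 7.28, 4.97 and 6.17 TPM in CC and kept medians of 6.70, 7.83, 6.86 and 6.88 TPM from 6 hpa to L2C. At 4C the 5 libraries held 1.95, 1.80, 3.12, 2.57 and 1.99 TPM, all below the lowest L2C library of 5.22 TPM. The fall was 2.31-fold (log2 difference -1.21, SE 0.33, adjusted p = 0.00227 in limma), -1.17 in replicates 1 to 3 and -1.25 in replicates 4 to 6. Quantile normalization, which moved the median difference of all genes at this step from -0.33 to 0.06, gave -0.57 and ended the call. Arid1b gave a median of 25.1% of the Arid1 pair's summed TPM in CC, 10.9% at 6 hpa, 20.0% at L2C, 6.88% at 4C and 3.38% in the TE. The log2 ratio of Arid1a to Arid1b was 1.45 higher at 6 hpa than in CC (exact permutation adjusted p = 0.0429) and differed by 0.25 between morula and 6 hpa (exact permutation p = 0.355). Between ICM and TE Arid1b differed by 0.36 and was not called. In replicates 4 to 6 it was 1.55 higher in the ICM (adjusted p = 0.00132 in limma), and in replicates 1 to 3 the difference was -0.84.

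Actl6a (BAF53A, the actin-related subunit of dividing cells, chromosome 3, 32708546 to 32726971) was an abundant member from the donor cell on. It held 88.7, 89.6 and 72.8 TPM in CC, and medians of 48.0 TPM at 6 hpa, 93.8 TPM at 14 hpa, 57.3 TPM at E2C and 107 TPM at L2C. The 4C libraries split by replicate, with 35.8, 33.8 and 44.3 TPM in replicates 1 to 3 and 126 and 136 TPM in the others. From there to 8C, at 94.7, 168 and 203 TPM, the rise was 1.32 (SE 0.40, adjusted p = 0.0136 in limma). It was 1.84 in replicates 1 to 3 and 0.45 in replicates 4 to 6, where it was not called, and leaving out replicate 3, rescaling over reference genes (0.85) and quantile normalization (0.86) also ended the call. Medians of 137, 145 and 99.7 TPM followed in the morula, ICM and TE, with 30.0 to 239 TPM in the ICM alone, and none of these steps was called.

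**Figure D3:**
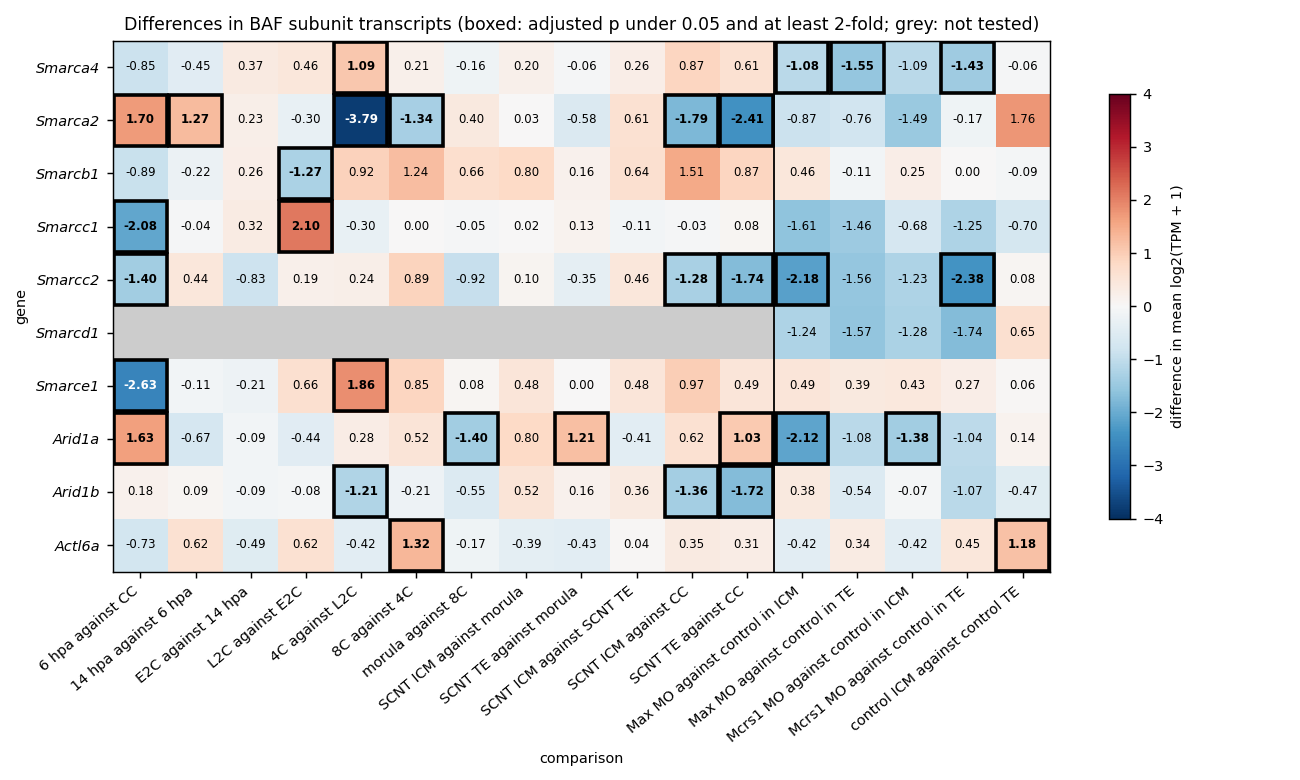
Differences in mean log2(TPM + 1) for the 10 BAF genes (rows) in 17 comparisons (columns), red for higher and blue for lower in the first group named; boxed cells passed the threshold and grey cells were not tested. The deepest blue cell is Smarca2 from L2C to 4C, at -3.79, and the 4 MO columns are blue for Smarca4, Smarca2, Smarcc1, Smarcc2, Smarcd1 and Arid1a.

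Against the donor cells, Smarca2 and Arid1b were called lower in both the ICM and the TE of the cloned blastocyst. The comparisons of 6 hpa, ICM and TE with CC share the 3 CC libraries and are not independent. In the ICM 3 of 9 members were called against 37.9% of all genes, each of them lower (21.0% of all genes), and in the TE 4 of 9 against 35.8%, with 3 of them lower (17.0%). Smarca2 was 1.79 lower in the ICM (SE 0.45, adjusted p = 0.00110 in limma) and 2.41 lower in the TE (SE 0.45, adjusted p = 1.98e-05), and in both the groups did not overlap, though the ICM call was lost when ICM and CC were fitted alone. In replicates 1 to 3 and 4 to 6 these differences were -2.35 and -1.24 in the ICM and -2.25 and -2.57 in the TE. Arid1b was 1.36 lower in the ICM (SE 0.39, adjusted p = 0.00346) and 1.72 lower in the TE (adjusted p = 2.78e-04). In the ICM it overlapped CC, with the highest ICM library at 5.44 TPM and the lowest CC library at 4.97 TPM, and in the TE it did not. Its values in the same sets of replicates were -2.02 and -0.70 in the ICM, where the latter was not called, and -1.19 and -2.25 in the TE. The ICM call of Arid1b was also lost without replicate 1, under quantile normalization (-0.51) and with ICM and CC fitted alone. From morula to ICM Arid1b rose by 1.21 in replicates 4 to 6 (adjusted p = 0.00245 in limma) and differed by -0.17 in replicates 1 to 3. Smarcc2 was 1.28 lower in the ICM (adjusted p = 0.0309) and 1.74 lower in the TE (adjusted p = 0.00346), both with overlap. By replicate set it gave -1.23, not called, and -1.33 in the ICM and -2.27 and -1.21 in the TE, and its ICM call was also lost without replicate 1, 2 or 5, under quantile normalization (-0.63) and with ICM and CC fitted alone. Arid1a was 1.03 higher in the TE (SE 0.35, adjusted p = 0.0165 in limma), with 1.48 in replicates 1 to 3 and 0.59, not called, in replicates 4 to 6. This call was also lost without replicate 1, 2 or 3, under quantile normalization (0.73) and after rescaling over reference genes (0.97). Smarce1 was 0.97 above CC in the ICM with no overlap, which was under 2-fold (adjusted p = 0.0180). The interval for Smarca4 was -0.05 to 1.79 in the ICM and -0.31 to 1.53 in the TE.

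The other subunits of the SWI/SNF family were counted from a list of 23 names, 21 of which stood in the tables and 17 of which passed the filter. From CC to 6 hpa 4 rose and 5 fell, 9 of 17 where 61.4% of all genes were called, with Bcl7c at 3.03 (adjusted p = 4.61e-04), Brd7, a bromodomain subunit of the PBAF form, at 2.10, and Dpf3 at 1.46, against Actb, the actin subunit, at -6.24 (adjusted p = 4.79e-25), Smarcd3 at -3.23 and Bcl11a at -2.94. From 6 to 14 hpa Ss18l1 rose by 1.84 (adjusted p = 9.52e-06), the only one called against 11.2% of all genes, and from 14 hpa to E2C Bcl7c rose by 1.99 and Dpf3 fell by 1.75, against 6.00%. From E2C to L2C 4 rose and 1 fell, where 34.7% of all genes were called, among them Bcl11a at 1.83, Pbrm1, the defining polybromo subunit of PBAF, at 1.47, Gltscr1l at 1.31 and Brd7 at -1.31. From L2C to 4C 2 rose, Bcl7b at 1.50 and Bcl7a at 1.19, and 8 fell, with Bcl7c at -4.67 (adjusted p = 3.62e-08), Bcl11a at -2.48 and Phf10 at -2.20. At this step 38.3% of all genes were called, and of those calls 30.7% were higher, so that falls outnumbered rises among all genes too. Bcl7c stood at 47.9 to 204 TPM at 6 hpa, 109 to 355 TPM at E2C, 28.0 to 650 TPM at L2C and 1.66 to 12 TPM at 4C. The L2C and 4C libraries did not overlap. From 4C to 8C Dpf2, a PHD-finger subunit of canonical BAF, rose by 2.13 (adjusted p = 9.70e-05) and Ss18l1 fell by 1.43, against 20.0% of all genes called.

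After 8C the called changes were led by Actb, which rose from 8C to morula by 2.05, with Ss18 at 1.07 (12.6% of all genes called), and again from morula to ICM by 1.99 and to TE by 2.61. In all 3 of 17 were called from morula to ICM against 24.0% of all genes, and 5 of 17 from morula to TE against 22.0%. Arid2, the PBAF counterpart of the Arid1 genes, rose in both, by 1.34 in the TE, where Pbrm1 rose by 1.01, and Smarcd3 fell by 1.56 in the ICM and by 1.66 in the TE, where Dpf3 fell by 1.39. Between ICM and TE 0 of the 17 were called in limma, with 5 at an unadjusted p under 0.05. Against CC, 4 of 17 were higher and 7 lower in the ICM, where 37.9% of all genes were called and 21.0% were lower, and 5 were higher and 6 lower in the TE, where these shares were 35.8% and 17.0%. Dpf2 led the higher ones, at 3.23 in the ICM and 2.33 in the TE, followed by Bcl7a at 2.61 and 1.67, Brd9 at 1.42 in the ICM and Actb at 1.48 in the TE. The lower ones were led by Phf10 at -3.52, Smarcd3 at -3.13 and Bcl11a at -2.97 in the ICM and by Smarcd3 at -3.23, Bcl11a at -2.98 and Phf10 at -2.03 in the TE.

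The MO blastocysts were first checked for the targeted transcripts and for lineage markers. Mcrs1, a gene that encodes a subunit of chromatin and transcription complexes, stood at 253 and 310 TPM in the control ICM and at 86.8 and 73.4 TPM after the Mcrs1 MO, a log2 difference of -1.80 (adjusted p = 0.00333 in limma) that became -1.94 (adjusted p = 3.86e-04) without control ICM replicate 1. In the TE it stood at 219 and 294 TPM and at 41.1 and 45.5 TPM, a difference of -2.53 (adjusted p = 8.68e-04). Max, the dimerization partner of MYC, stood at 38.0 and 8.42 TPM in the control ICM and at 6.82 and 0.443 TPM after the Max MO (-2.51, adjusted p = 0.0397 in limma), and in the TE at 34.5 and 28.5 TPM and at 16.3 and 8.68 TPM (-1.32, adjusted p = 0.390). The Max call in the ICM rested on 1 control: without replicate 1, at 38.0 TPM, the difference was -1.49 (adjusted p = 0.177 in limma). Since a MO need not lower the RNA it targets, these values do not measure the loss of protein.

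The 2 control ICM libraries differed widely in their lineage markers. In control ICM replicate 1 the TE markers summed to 16260 TPM, with Cdx2, the TE transcription factor, at 57.7 TPM. In control ICM replicate 2 they summed to 622 TPM, with Cdx2 at 0.222 TPM. The control TE libraries held 20787 and 18612 TPM, the Max MO ICM 2770 and 5903 TPM, and the Mcrs1 MO ICM 11622 and 8114 TPM. Control ICM replicate 1 thus lay above each MO ICM library in TE markers, and replicate 2 lay below each of them. The ICM markers of replicate 1, at 793 TPM beside 917 TPM in replicate 2, were above the 205 and 246 TPM of the control TE. The ICM calls of the members, of the targeted genes and of the other subunits named are also given without replicate 1. That leaves replicate 2 as the only ICM control, so these values rest on 1 library with fewer TE marker transcripts than any MO ICM library. The control libraries also had a lower TPM share of reference genes, 85.5% to 90.3% against 93.6% to 94.4% in all MO libraries. After rescaling over reference genes each call of a member below held, and what these differences between libraries contribute was not tested.

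In the MO comparisons all 10 members passed the filter and the calls went one way. After the Max MO 3 of 10 fell in the ICM, where 23.7% of all 11219 genes were called and 15.1% fell, and 1 of 10 fell in the TE, where 2.50% were called and 1.45% fell. After the Mcrs1 MO 1 of 10 fell in the ICM, where 10.1% of all genes were called and 5.21% fell, and 2 of 10 in the TE, where 5.08% were called and 3.31% fell. The median difference over the members was -0.98 after the Max MO in the ICM and -0.92 in the TE, while the medians over all genes were -0.21 and -0.19. After the Mcrs1 MO it was -0.88 in the ICM and -1.05 in the TE, with -0.05 and -0.24 over all genes. Both MO groups of a lineage are compared with the same 2 control libraries, so the likeness of their values is not independent. Estimates for Smarca4, Smarca2, Smarcc1, Smarcc2, Smarcd1 and Arid1a were below 0 in 4 of 4 comparisons, and those for Smarce1 in 0 of 4. The share of all genes below 0 in 4 of 4 was not counted, and the medians over all genes were below 0 too. The number of members below 0 is therefore no result about them.

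**Figure D4:**
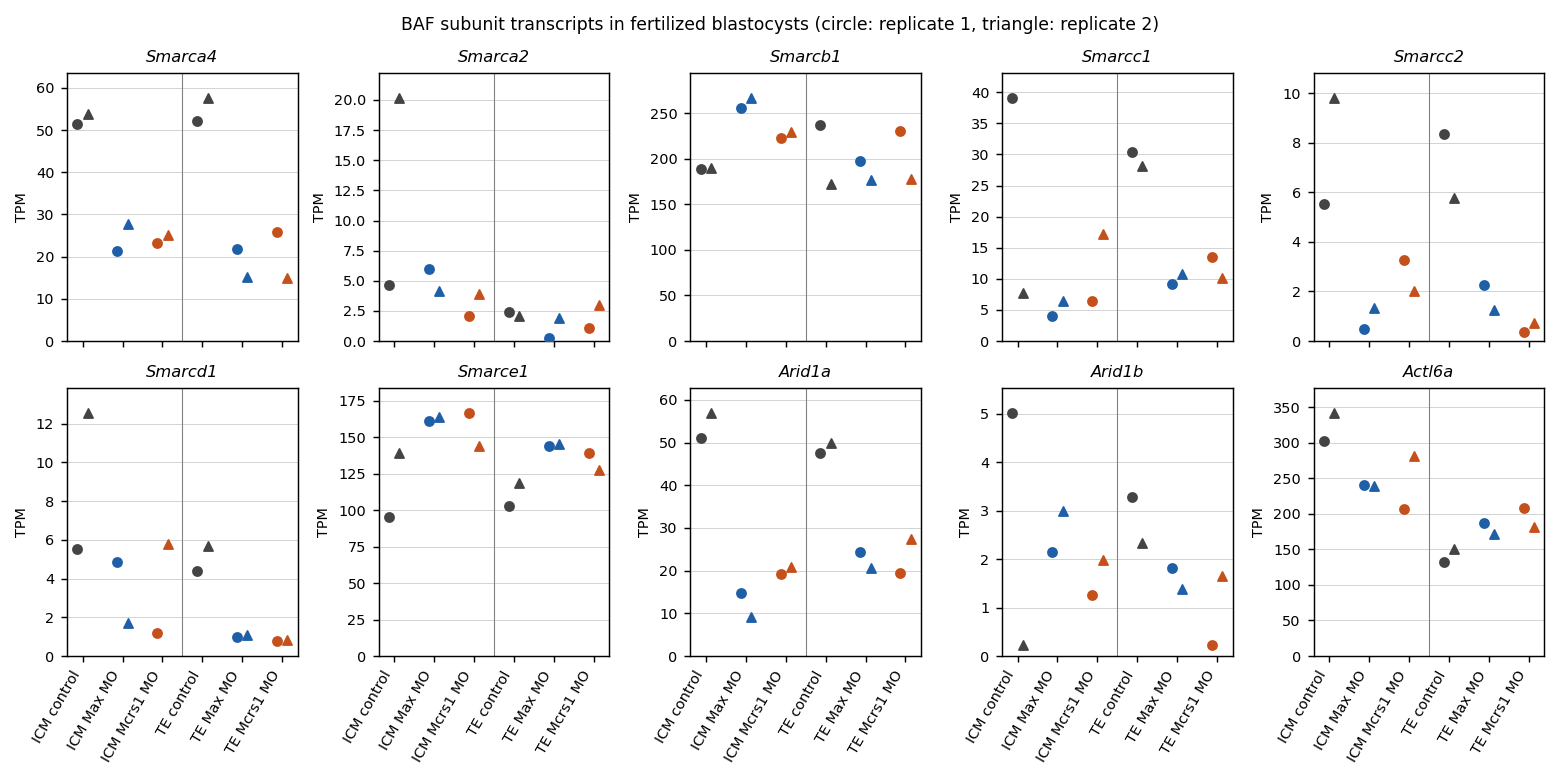
TPM of the 10 BAF genes in the 12 libraries of fertilized blastocysts, 1 panel per gene, with circles for replicate 1 and triangles for replicate 2 of each of the 6 groups along the horizontal axis. All 4 control libraries lie above all 8 MO libraries for Smarca4, at 51.5 to 57.7 TPM against 15.0 to 27.8 TPM.

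Smarca4 stood at 51.5 and 53.8 TPM in the control ICM and at 52.3 and 57.7 TPM in the control TE. After the Max MO it was 21.3 and 27.8 TPM in the ICM and 21.7 and 15.1 TPM in the TE, and after the Mcrs1 MO 23.3 and 25.2 TPM in the ICM and 25.9 and 15.0 TPM in the TE. No control library overlapped any MO library. The differences after the Max MO were -1.08 in the ICM (SE 0.34, adjusted p = 0.0371 in limma) and -1.55 in the TE (adjusted p = 0.0409), and after the Mcrs1 MO -1.09 in the ICM (adjusted p = 0.0599, not called) and -1.43 in the TE (adjusted p = 0.0348). Each of the 3 calls was lost when any 1 of its 4 libraries was left out, with estimates that stayed between -1.80 and -0.90, and each was lost under quantile normalization. Without control ICM replicate 1 the Max MO difference in the ICM was -1.11 (adjusted p = 0.0508).

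Arid1a fell in both ICM comparisons. It stood at 51.0 and 57.0 TPM in the control ICM, at 14.7 and 9.19 TPM after the Max MO and at 19.3 and 20.8 TPM after the Mcrs1 MO, with no overlap. The fall was 4.34-fold after the Max MO (log2 difference -2.12, SE 0.33, adjusted p = 0.00184 in limma) and held under each of its 12 alternatives, at -2.20 (adjusted p = 0.00226) without control ICM replicate 1. After the Mcrs1 MO it was -1.38 (adjusted p = 0.0255) and -1.46 (adjusted p = 0.0191) without that library, and it was lost without either Mcrs1 MO library. In the TE the controls held 47.5 and 50.0 TPM, the Max MO libraries 24.4 and 20.7 TPM and the Mcrs1 MO libraries 19.5 and 27.5 TPM. The TE differences of -1.08 (adjusted p = 0.0968 in limma) and -1.04 (adjusted p = 0.0826) were not called. The Max MO response of Arid1a was 1.03 lower in the ICM than in the TE, and this difference was not called. In limma's test of that interaction 0 of 11219 genes were called for the Max MO and 0 for the Mcrs1 MO, with 1473 and 972 genes at an unadjusted p under 0.05.

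Smarcc2 stood at 5.53 and 9.82 TPM in the control ICM, at 0.476 and 1.34 TPM after the Max MO and at 3.26 and 2.0 TPM after the Mcrs1 MO. In the TE it stood at 8.37 and 5.77 TPM in the controls, 2.26 and 1.24 TPM after the Max MO and 0.373 and 0.713 TPM after the Mcrs1 MO, so that no MO library reached a control of its lineage. The Max MO difference in the ICM was -2.18 (SE 0.57, adjusted p = 0.0172 in limma), -2.54 (adjusted p = 0.0123) without control ICM replicate 1 and -1.81 (adjusted p = 0.0511) without replicate 2, and it was also lost without Max MO replicate 1. The Mcrs1 MO difference in the TE was -2.38 (adjusted p = 0.0349) and was lost without any 1 of its 4 libraries. The values of -1.56 for the Max MO in the TE and -1.23 for the Mcrs1 MO in the ICM were not called.

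Smarcc1 depended on the control ICM libraries, which stood at 39.1 and 7.66 TPM. The Max MO libraries held 4.08 and 6.36 TPM in the ICM, a difference of -1.61 (adjusted p = 0.0982 in limma), which became -0.50 without control ICM replicate 1 and -2.71 without replicate 2. In the TE the controls held 30.4 and 28.1 TPM, the Max MO libraries 9.24 and 10.8 TPM and the Mcrs1 MO libraries 13.6 and 10.1 TPM. The TE differences of -1.46 and -1.25 were not called (adjusted p = 0.252 and 0.279 in limma). Smarca2 also differed between the control ICM libraries, at 4.66 and 20.2 TPM, and held 5.97 and 4.14 TPM after the Max MO, 2.09 and 3.90 TPM after the Mcrs1 MO, and 0.233 to 3.01 TPM in the TE. It was not called in any MO comparison. Its difference after the Mcrs1 MO in the ICM was -2.44 without control ICM replicate 1 and -0.54 without control ICM replicate 2, each with 1 control left. Smarca4 stayed the higher ATPase in 12 of 12 libraries, with Smarca2 at 1.06% to 27.3% of the pair's sum.

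The remaining members were not called after either MO. Smarce1 stood at 95.4 and 139 TPM in the control ICM and at 144 to 167 TPM in the MO ICM, and its differences were 0.27 to 0.49 over the 4 comparisons. Smarcb1 held 189 and 190 TPM in the control ICM, 256 and 267 TPM after the Max MO and 223 and 229 TPM after the Mcrs1 MO, differences of 0.46 (95% interval 0.01 to 0.92, adjusted p = 0.12 in limma) and 0.25. Smarcd1 stood at 0.769 to 1.07 TPM in the MO TE and at 4.38 and 5.71 TPM in its controls, with adjusted p of 0.226 after the Max MO and 0.143 after the Mcrs1 MO. Arid1b was uneven between the control ICM libraries, at 5.02 and 0.235 TPM, and showed no called change. Actl6a was the one member called between control ICM and control TE, where 2.92% of all genes were: it stood at 302 and 342 TPM in the ICM and at 133 and 151 TPM in the TE, 1.18 higher (SE 0.20, adjusted p = 0.0234 in limma), a call lost without either TE control and kept, at 1.27 (adjusted p = 0.00303), without control ICM replicate 1. Without that library, which leaves 1 ICM control, the differences were 2.71 for Smarca2 and -1.80 for Smarcc1. Without control ICM replicate 2 instead they were 0.81 and 0.41. After the MOs Actl6a held 206 to 281 TPM in the ICM and 171 to 208 TPM in the TE, with no call. Of the 13 other SWI/SNF subunits tested in these libraries 3 fell after the Max MO in the ICM, where 23.7% of all genes were called and 15.1% fell, Pbrm1 by 2.53 (adjusted p = 0.00358), Arid2 by 1.96 (adjusted p = 0.0252) and Ss18 by 1.37 (adjusted p = 0.00166 in limma), calls that stood at -2.51, -1.92 and -1.47 without control ICM replicate 1. In each of the other 3 MO comparisons 0 were called in limma, with 4 or 5 at an unadjusted p under 0.05.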

How the data were processed

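Polyadenylated RNA of 68 samples was sequenced after Smart-seq amplification. The authors deposited 1 StringTie gene table per sample with coverage, FPKM and TPM, and the submitters' processing notes name cutadapt 1.16, HISAT2, StringTie, Cufflinks, deepTools and the mm10 build. In the deposited TPM column the assembled loci alone sum to the full total and the reference genes stand beside them as further rows, so it was treated as a signal on that scale. The deposited coverage values, times locus length, gave the aligned bases, and FPKM was not analysed. No counts were available here, so the count-based test of the study could not be run, and depth in reads is unknown. Whether strand was used in counting is not given in the sources used here.

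TPM was summed per gene symbol, genes with a mean of at least 1 TPM were kept, log2(TPM + 1) was taken, and limma 3.58.1 in R 4.3.3 (lmFit and empirical Bayes, Benjamini-Hochberg) was fitted separately to the 56 SCNT and CC libraries (12084 genes) and the 12 blastocyst libraries (11219 genes), with groups from the labels. A call needed an adjusted p under 0.05 and a 2-fold difference. Pair ratios used exact permutation tests. Python 3.11.15, matplotlib 3.10.9, scipy 1.17.1, pandas 2.3.3 and numpy 2.4.6 were used, and the tests were tried on simulated data first.

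The genes named are all 10 members, those not called being given by their levels or in counts, together with, of the other subunits, up to 3 calls of largest size in each direction, and Max and Mcrs1. The members, lists and tests were chosen with earlier results of these data known. Among comparisons with 3 or more pairs, same-numbered replicates deviated together (every r over 0.1) only for 14 against 6 hpa (0.14 to 0.39) and SCNT ICM against TE (0.13 to 0.30), a pairing that comes from the data and not from the labels. Control ICM against control TE, with 2 pairs, gave 0.13. Alternatives were another pseudocount, other filters, rescaling, quantile normalization, the largest row per gene, a replicate block, each set of replicates, the compared groups alone and leaving out each replicate. Promoter windows came from a RefSeq table of GRCm38.p6, and Smarce1 is named only.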

Additional observations from a re-analysis of the deposited data

Results flagged for a closer look

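Of the 90 sets of 5 or 6 SCNT libraries examined for the members, 6, or 6.7%, held 1 library far from the others by Dixon's criterion, where chance gives about 1 in 20. Smarcc2 stood at 5.40 TPM in TE replicate 6 and at 0 to 0.601 TPM in the other TE libraries. At 6 hpa, Smarcd1 stood at 0.317 TPM in replicate 5 (others 0.0225 to 0.0516 TPM), Smarce1 at 22.6 TPM in replicate 2 (others 9.47 to 12.4 TPM), Arid1b at 12.3 TPM in replicate 2 (others 5.09 to 7.12 TPM) and Actl6a at 63.5 TPM in replicate 3 (others 45.2 to 49.0 TPM). Actl6a also stood at 21.7 TPM in L2C replicate 1, the library with the lowest TPM share of reference genes at 30.4%, and at 92.0 to 129 TPM in the other L2C libraries.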

How the results depend on the processing

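Of 368 alternative values for the counts of members and the pair ratios, 282 were taken as unchanged. A count was so taken where it equalled the main count or lay within a set ratio of it. A pair ratio had to keep its direction and its side of the threshold. Of 980 values for single members, 829 kept the direction and the side of the threshold. These values belong to 67 differences, those called in the main fit or under an alternative, and the others were not followed. Where a value changed below, the cause was not tested. The limits that bear on all results are the few libraries per group, the unknown depth in reads, and values at or near 0 TPM for Smarcc2, Smarcd1 and late Smarca2. Smarca2 and Smarce1 from L2C to 4C, Smarcc1 from E2C to L2C, Arid1a from 8C to morula and Arid1a after the Max MO in the ICM passed under every alternative run for them.

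The replicate block raised the count from CC to 6 hpa from 5 to 8 and lowered that of the Max MO in TE from 1 to 0, and in the paired tests of morula against 6 hpa the ratios of 5.04 for Smarca4 over Smarca2 and 2.02 for Smarcc1 over Smarcc2 lost their calls (exact permutation adjusted p = 0.0938, from the smallest p that 6 pairs allow). It changed no call for 14 against 6 hpa, SCNT ICM against TE or control ICM against TE.

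Counts of members past the threshold moved as follows. With a pseudocount of 0.1, 14 against 6 hpa gave 0, the Smarcc1 over Smarcc2 ratio at 6 hpa against CC (-0.64) lost its call and Arid1a over Arid1b in morula against 6 hpa (0.99) gained one. Without a filter, L2C against E2C gave 1, Max MO TE 0 and Mcrs1 MO TE 1. With a mean of at least 5 TPM, TE against CC gave 2 and Mcrs1 MO TE 1. Rescaling over reference genes gave 1 for 8C against 4C and 2 for Mcrs1 MO ICM. Quantile normalization gave 1 for E2C against 14 hpa, 2 for morula against 8C, 1 for ICM and 0 for TE against morula, 1 for ICM against CC, and 0 for both MOs in TE. Replicates 1 to 3 alone gave 0 for 14 against 6 hpa, 4 for 8C against 4C, 2 for morula against 8C, 1 for ICM against morula and 5 for ICM against CC. Replicates 4 to 6 alone gave 2 for 14 against 6 hpa, 1 for E2C against 14 hpa, 0 for 8C against 4C, 2 for ICM against morula, 2 for ICM against TE and 5 for ICM against CC. Fitting only the groups compared gave 1 for L2C against E2C, 8C against 4C and ICM against CC, and fitting each lineage alone gave 1 and 3 for the Max MO in ICM and TE and 0 and 5 for the Mcrs1 MO.

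Leaving out 1 replicate gave 0 to 1 for 14 against 6 hpa, 1 to 2 for L2C against E2C, 1 to 3 for 8C against 4C, 1 to 4 for ICM against CC, 1 to 2 and 0 to 0 for the Max MO in ICM and TE, 0 to 2 and 0 to 0 for the Mcrs1 MO, and 0 to 3 for control ICM against TE. At 6 hpa against CC the ratios ran from -2.76 to -2.23 for Smarca4 over Smarca2, from -0.88 to -0.58 for Smarcc1 over Smarcc2 and from 1.25 to 1.59 for Arid1a over Arid1b, each without a call after adjustment; the smallest p the remaining libraries allow is 0.0357 or 0.0952 (exact permutation). The Smarca4 over Smarca2 ratio in ICM against TE ran from -1.10 to 0.071, and reversed without replicate 1 (0.057) or replicate 5 (0.071).

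Among the 67 differences of single members that were followed, those that reversed were of members not called in the main fit. With replicates 1 to 3 alone they were Smarce1 in E2C against 14 hpa (0.77), Smarcc1 (-1.09) and Arid1b (-0.17) in ICM against morula, Smarca2 (-0.10) and Arid1b (-0.84) in ICM against TE and Actl6a (-0.31) in ICM against CC, where quantile normalization gave -0.056. With replicates 4 to 6 alone they were Arid1a in L2C against E2C (0.16) and Arid1b in morula against 8C (0.11). Leaving out 1 replicate, Smarce1 in E2C against 14 hpa ran from -0.53 to 0.018 and reversed without replicate 4 or 6, Smarcc1 in ICM against morula ran from -0.25 to 0.55 and reversed without replicate 3, 4, 5 or 6, Arid1b in ICM against TE ran from -0.070 to 0.74 and reversed without replicate 4, and Smarcc1 in control ICM against TE ran from -1.80 to 0.41 and reversed without control ICM replicate 2.

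Quantile normalization brought the median difference over all genes to within 0.10 of 0 in each comparison, from values as low as -0.33 (L2C to 4C) and as high as 0.26 (E2C to L2C). The share of calls that were higher changed from 68.0% to 48.7% for L2C against E2C, 30.7% to 50.6% for 4C against L2C, 71.9% to 49.1% for morula against 8C, 26.6% to 45.5% for ICM against TE, 36.5% to 53.3% for the Max MO in ICM and 34.9% to 51.1% for the Mcrs1 MO in TE.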
